A study of Drosophila melanogaster with 6 samples.

Results

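The 10 genes described here encode proteins of the basement membrane, the thin sheet of extracellular matrix that wraps fly organs, and of the matrix around the heart. They are the collagen IV genes Col4a1 and vkg (viking), the pericardin gene prc, the laminin genes LanA, wb (wing blister), LanB1 and LanB2, the perlecan gene trol, the nidogen gene Ndg and SPARC. Members were all probe sets whose single annotated gene symbol was one of these, which gave 19 probe sets of 18952 on the array, for 10 of 11982 genes with a symbol. A probe set is a group of oligonucleotides read together as 1 value, and 402 of those on the array were annotated with several genes. trol had 8 probe sets, wb had 3 and each other gene had 1.

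Expression was measured in heart/nephrocyte complexes of adult female Drosophila melanogaster. The flies had been kept for 21 days on media containing 0.1 M glucosamine (the glucosamine group) or 1.0 M sucrose (the sucrose group). There were 3 arrays per group and 6 in all. The labels give no strain, genotype or age beyond adult. They name 30 adult females without saying how these were divided over the arrays, so the p-values below cover only the variation among these 6 samples, part or all of which may be technical. No standard diet was analysed here, and the diets differ in both the sugar and its concentration.

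Basement membranes are built from a laminin network and a collagen IV network, which nidogen and perlecan connect. Laminins are trimers of an alpha, a beta and a gamma chain; in the fly LanA and wb encode the alpha chains, LanB1 the beta chain and LanB2 the gamma chain. Collagen IV of the fly is assembled from the products of Col4a1 and vkg, and SPARC is a collagen-binding glycoprotein needed for its proper deposition. In the fly heart, Pericardin, a collagen-like protein, forms a fibrous network around the heart tube and the pericardial nephrocytes, which filter the hemolymph. Fat body and hemocytes, the fly blood cells, are known producers of basement membrane proteins.

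Of the 10 genes, 9 passed the filter that left out the 40% of genes and unnamed probe sets with the lowest mean, and prc did not. With limma, a gene was called at an adjusted p under 0.05. Only wb among the 9 was called, and it fell in the glucosamine-fed flies, where 8.61% of all 10022 genes and unnamed probe sets tested fell. None of the 9 rose with limma, where 9.93% of all tested rose, although 3 had a positive difference with an unadjusted p under 0.05, as had 1665 of the 10022. Differences on the log2(intensity + 16) scale are glucosamine minus sucrose throughout. The median log2 difference of the 9 was 0.23, against −0.03 over everything tested. Of the 9, 6 were positive and 3 negative, against 4647 and 5375 over everything tested. With 3 arrays in each group the smallest two-sided p of an exact permutation test is 0.1, and every call therefore depends on the variance that limma moderates across genes.

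**Figure D1:**
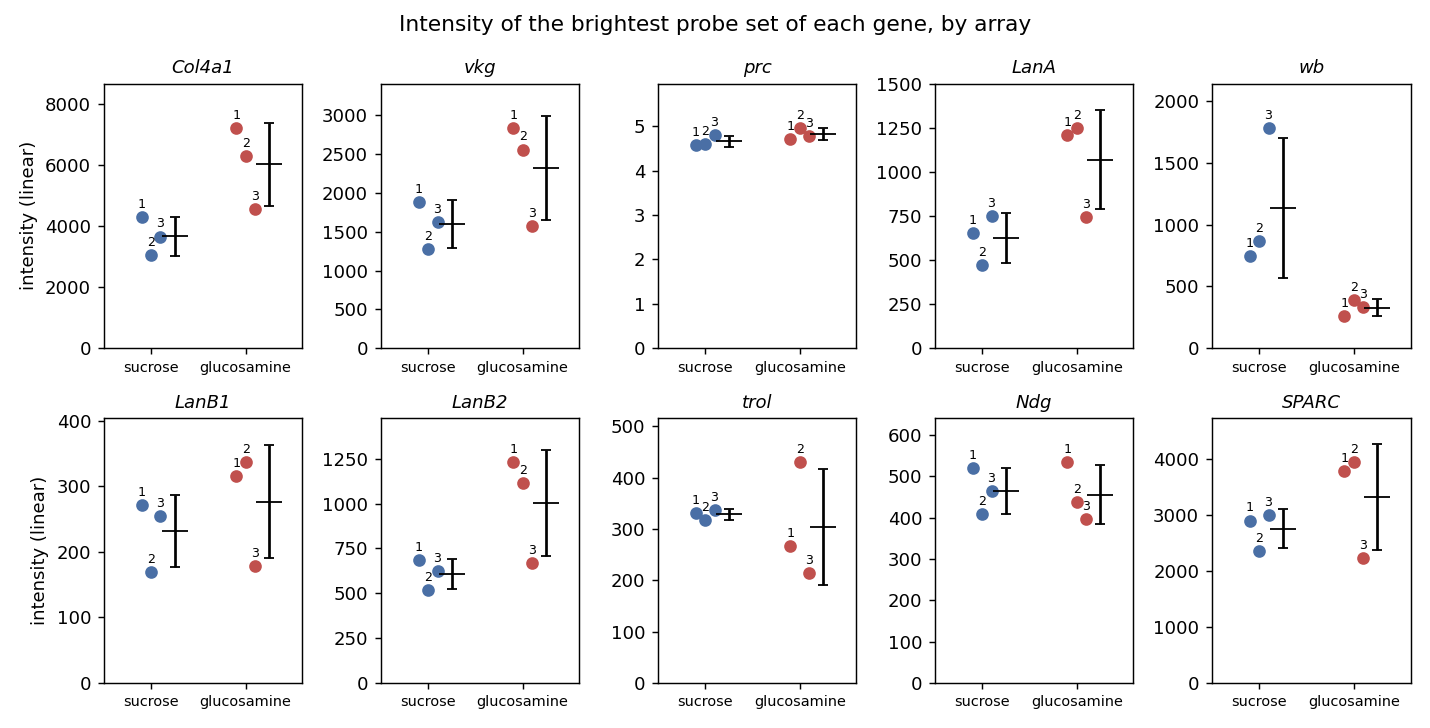
Intensity (linear scale, starting at 0) of the brightest probe set of each of the 10 genes on each array. Points are arrays numbered by replicate, blue for sucrose and red for glucosamine, and the bar beside them is the mean ± SD (n = 3). For wb the 3 glucosamine arrays lie below the 3 sucrose arrays, for Col4a1 they lie above, for the other 8 genes the groups overlap, and prc lies between 4.58 and 4.97 throughout.

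The arrays were alike in overall intensity, with an upper quartile of 222 to 237 and 6321 to 6435 probe sets over 100. All 8 nephrocyte markers were above the filter. Of the 6 heart muscle markers only Hand and sls were found under their symbols, and both were above the filter, so the heart was checked on those alone. Of the 8 nephrocyte markers 6 fell, where 8.61% of everything tested fell, and none rose with limma or had a positive difference. Their summed intensity was 6688 to 8417 on the glucosamine arrays and 23656.5 to 38527 on the sucrose arrays. Hand, which encodes a transcription factor active in cardiac and pericardial cells, fell by 0.75 on the log2 scale (limma adjusted p = 0.0239). The titin-like gene sls had a log2 difference of 0.14 with overlapping groups (adjusted p = 0.818). In whole dissected tissue, fewer cells of a type and less RNA per cell cannot be told apart. The other lists with their summed intensity on glucosamine and on sucrose arrays were as follows, and in none of them did a gene pass with limma, while Gasp alone had an unadjusted p under 0.05. Hemocyte markers, 7 of 7 above the filter, summed to 6476.5 to 10826 and 6835 to 9787. Fat body markers, 6 of 7 above it, summed to 101183 to 113943 and 104444 to 126867. Ovary follicle markers, 3 of 4 above it, summed to 58.1 to 271 and 71.2 to 1069, with the highest value of each group on its array 1. Neuron and glia markers, 3 of 4 found on the array being above it, summed to 289 to 550 and 290 to 429 (289.997 on the lowest sucrose array). Epidermis markers summed to 279 to 417 and 217 to 400.5, with 2 of 4 above it. Of 2 tracheal markers found, Gasp was above the filter and btl was not, and the sum was 55.2 to 97.1 against 31.7 to 49.8. Fbp1, psd, brp, resilin and ple were the other markers below the filter.

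Among the laminin alpha chains, wb was the member with the largest difference. Its intensity was 258, 391 and 336 on glucosamine arrays 1, 2 and 3, and 750.3, 869.5 and 1787 on sucrose arrays 1, 2 and 3. Every glucosamine array lay below every sucrose array, as it did for 20% of everything tested, and sucrose array 3 was far above the other two. The group means were 328 ± 66.6 against 1136 ± 567 (SD, n = 3 each). The log2 difference of wb was −1.65 ± 0.34 (SE; limma adjusted p = 0.0210), with a 95% confidence interval from −2.47 to −0.84, and 1.05% of everything tested had a lower difference. Without sucrose array 3 the log2 difference of wb was −1.28 (limma adjusted p = 0.0258). The call was lost without glucosamine array 1, at −1.50 (adjusted p = 0.0826), and without glucosamine array 3, at −1.68 (adjusted p = 0.0589). Nephrocyte markers were lower on the same arrays, by a median of −1.94 over 8 genes. Among the sucrose arrays each of these 8 was highest on array 3, as wb was. The part of nephrocyte content in the wb difference was not tested. Control probe sets at the 5′ end, set against those at the 3′ end of the same RNA, were also lower on the glucosamine arrays. The log2 differences were −0.74 for eIF-4a, −0.15 for GAPDH and −0.12 for 18S rRNA, with groups that did not overlap. For the actin control it differed by −0.27 and the groups overlapped, and the part of RNA integrity in any difference here was not tested.

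Another probe set of wb was dimmer, with intensities of 14.1, 17.6 and 18.6 on the glucosamine arrays and 22.0, 39.4 and 47.7 on the sucrose arrays. Its groups did not overlap either, in the same direction. In the fit of all probe sets its log2 difference was −0.65 ± 0.21 (SE; limma adjusted p = 0.0839), where 8.28% of 11021 probe sets fell. The last probe set of wb lay between 7.57 and 9.06 on all 6 arrays and did not pass the filter. The brightest of the 3 thus carried the call, and with the mean of the 3 in its place the log2 difference of wb was −0.77 (limma adjusted p = 0.0420).

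LanA, the gene of the other laminin alpha chain, went the other way in its values. Its intensity was 1211, 1250 and 746 on glucosamine arrays 1, 2 and 3, against 654, 471 and 748 on the sucrose arrays. Glucosamine arrays 1 and 2 were above all sucrose arrays, while glucosamine array 3 was just below sucrose array 3, so the groups overlapped. The log2 difference of LanA was 0.75 ± 0.26 (SE; limma adjusted p = 0.0978), with a 95% confidence interval from 0.12 to 1.38. The log2 ratio of wb to LanA within each array was −2.16, −1.64 and −1.11 on the glucosamine arrays and 0.19, 0.86 and 1.24 on the sucrose arrays. That ratio differed by −2.40 between the diets with no overlap of the groups (exact permutation test, two-sided p = 0.1, the smallest that 3 against 3 can give; adjusted p = 0.125 over 5 pairs of genes). With the next brightest wb probe set it was −1.40, again without overlap. With the wb probe set below the filter it was −0.75, also without overlap. That probe set was near background and the groups of LanA overlapped. The separation was narrow, with −4.96 on glucosamine array 3 against −4.93 on sucrose array 3, so little can be read from this ratio.

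**Figure D2:**
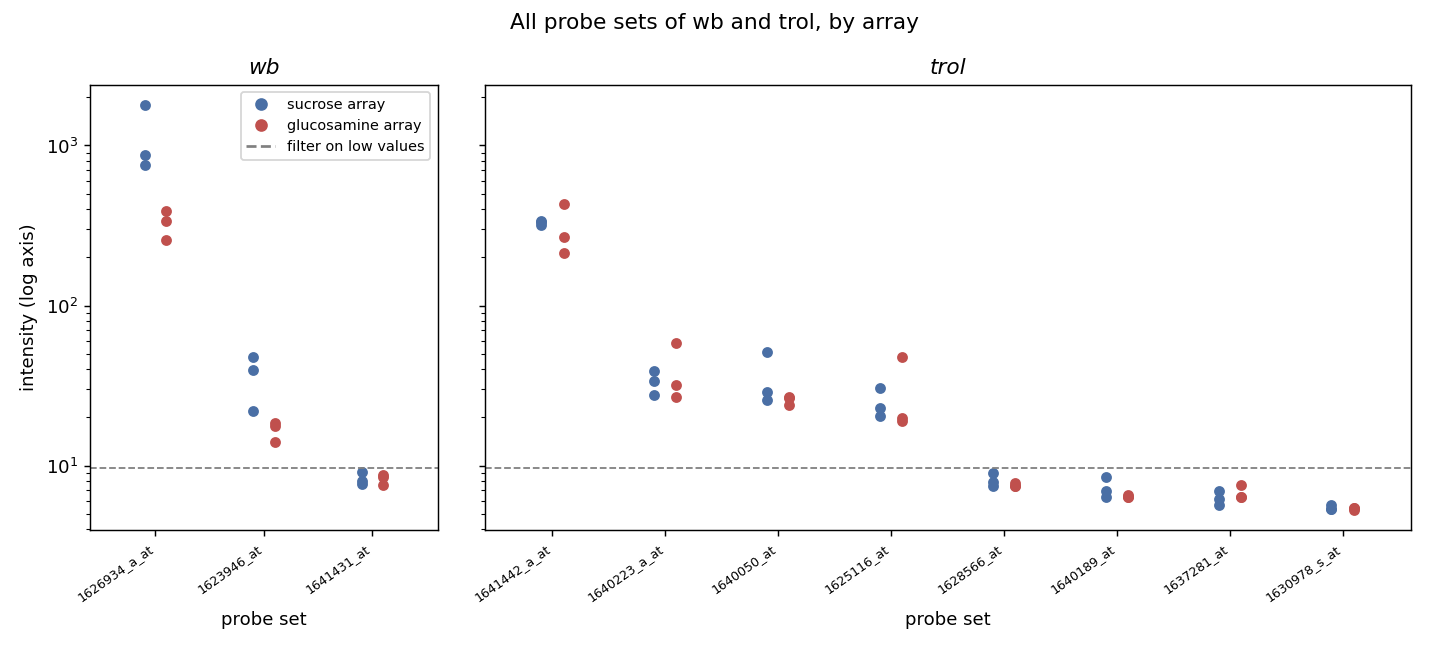
Intensity on a log axis of every probe set of wb (3, left) and trol (8, right), ordered by mean, with 1 point per array, blue for sucrose and red for glucosamine. The dashed line marks the filter on low values, at an intensity of about 9.63. The 2 brighter wb probe sets show lower glucosamine arrays, while the groups overlap in the brightest trol probe set and in each of the other trol probe sets above the line.

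LanB1 and LanB2, the genes of the beta and gamma chains that both alpha chains share, followed LanA in their array values. LanB2 had intensities of 1229, 1115 and 668 on the glucosamine arrays and 684, 519 and 625.5 on the sucrose arrays. Only glucosamine array 3 fell among the sucrose values. Its log2 difference was 0.67 ± 0.25 (SE; limma adjusted p = 0.1198), with a 95% confidence interval from 0.06 to 1.27. LanB1 was dimmer, with 316, 337 and 178 on the glucosamine arrays against 272, 169.5 and 255 on the sucrose arrays. Again glucosamine arrays 1 and 2 were highest and array 3 lay with the sucrose arrays. LanB1 differed by 0.22 ± 0.29 on the log2 scale (SE; limma adjusted p = 0.647), with a 95% confidence interval from −0.47 to 0.90. The within-array log2 ratio of LanB1 to LanB2 was −1.91, −1.68 and −1.82 on the glucosamine arrays and −1.28, −1.53 and −1.24 on the sucrose arrays. It differed by −0.45 without overlap (exact permutation test, two-sided p = 0.1, adjusted p = 0.125).

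Col4a1 and vkg, the collagen IV genes, are neighbours in the fly genome, with 0 genes between them in the RefSeq gene table. Col4a1 had intensities of 7232, 6297 and 4564 on glucosamine arrays 1, 2 and 3, and 4291, 3040 and 3662 on the sucrose arrays. It was the only gene of the 10 whose glucosamine arrays all lay above the sucrose arrays, as they did for 18.9% of everything tested. The group means of Col4a1 were 6031 ± 1354 against 3664 ± 625.5 (SD, n = 3 each). Its log2 difference was 0.70 ± 0.22 (SE; limma adjusted p = 0.0722), with a 95% confidence interval from 0.18 to 1.23, and 12% of everything tested had a higher difference. vkg had intensities of 2841, 2560 and 1571 on the glucosamine arrays and 1889, 1282 and 1625 on the sucrose arrays. Its first 2 glucosamine arrays exceeded all sucrose arrays and array 3 did not. For vkg the log2 difference was 0.51 ± 0.27 (SE; limma adjusted p = 0.235), with a 95% confidence interval from −0.12 to 1.14. The log2 ratio of Col4a1 to vkg was 1.34, 1.29 and 1.53 on the glucosamine arrays against 1.18, 1.24 and 1.16 on the sucrose arrays. That was a difference of 0.20 without overlap (exact permutation test, two-sided p = 0.1, adjusted p = 0.125). The Col4a1 and LanB1 probe sets carry a suffix that Affymetrix uses where probes may also match another transcript, so their values may not come from these genes alone.

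The single probe set of prc gave 4.72, 4.97 and 4.79 on the glucosamine arrays and 4.583, 4.603 and 4.81 on the sucrose arrays. These values lie near the lowest intensity of the whole table, 4.32, and only 1.69% of probe sets had as low a mean or lower. The probe set was thus not well above background on any array, and these data do not bear on the level of prc. The ratio of Col4a1 to prc, the remaining pair of the 5, is not given for that reason. The list of other matrix genes included loh (lonely heart), whose ADAMTS-like product recruits Pericardin to the heart matrix. It had intensities of 552, 731 and 427 on the glucosamine arrays and 464.5, 495 and 659.7 on the sucrose arrays. The groups overlapped over most of their range, with a log2 difference of 0.06 ± 0.24 (SE; limma adjusted p = 0.892).

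The linker protein genes and SPARC did not pass with limma. SPARC had intensities of 3789, 3941 and 2239 on the glucosamine arrays and 2903, 2363 and 3009 on the sucrose arrays. Glucosamine array 3 was the lowest of the 6 and arrays 1 and 2 were the highest. SPARC had a log2 difference of 0.23 ± 0.25 (SE; limma adjusted p = 0.562), with a 95% confidence interval from −0.36 to 0.82. Ndg, which encodes nidogen, had intensities of 533, 437 and 395.5 on the glucosamine arrays and 520.2, 409 and 464 on the sucrose arrays. Both groups covered nearly the same range. The log2 difference of Ndg was −0.03 ± 0.17 (SE; limma adjusted p = 0.923), and its 95% confidence interval from −0.43 to 0.37 was the narrowest of the 9. The ratio of Ndg to SPARC differed by −0.26 on the log2 scale with overlapping groups (exact permutation test, two-sided p = 0.3, adjusted p = 0.3).

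trol encodes perlecan, a heparan sulfate proteoglycan. Its brightest probe set gave 267, 429 and 214 on the glucosamine arrays and 331, 316 and 337 on the sucrose arrays. The sucrose arrays were close together, and the glucosamine arrays lay on both sides of them. The log2 difference of trol was −0.16 ± 0.25 (SE; limma adjusted p = 0.698), with a 95% confidence interval from −0.75 to 0.43. In the fit of all probe sets 3 others of trol passed the filter, with log2 differences of 0.12, 0.09 and −0.27 (limma adjusted p = 0.775, 0.857 and 0.408). The 4 remaining ones lay at the low end of the scale, between 5.31 and 9.0 on every array.

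**Figure D3:**
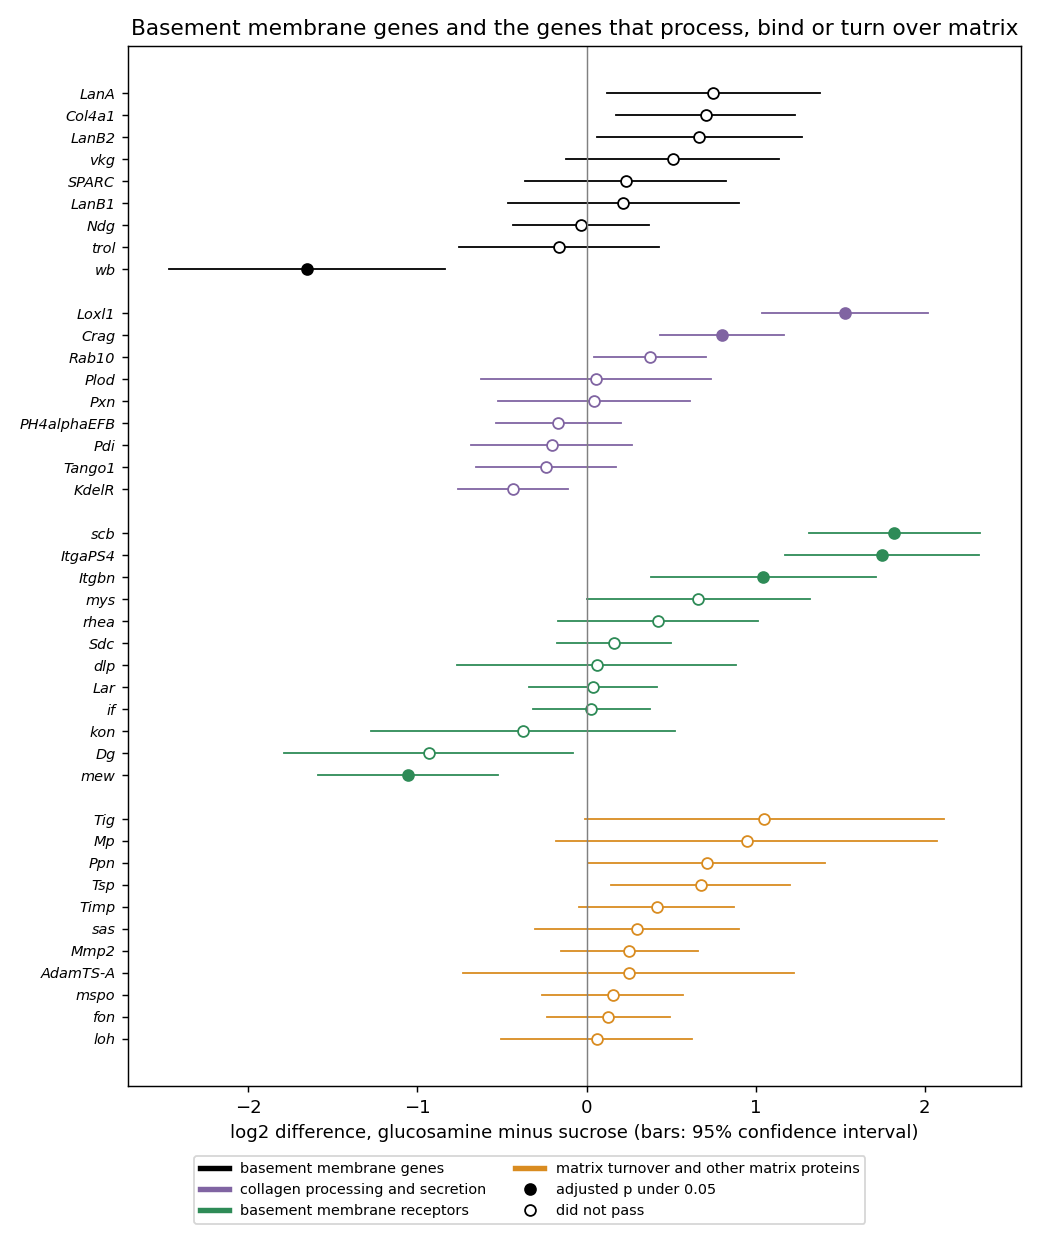
Log2 differences (horizontal axis, glucosamine minus sucrose on the log2(intensity + 16) scale) with 95% confidence intervals for the 9 tested basement membrane genes and 32 tested genes of 3 related lists. Filled points passed an adjusted p of 0.05. Only wb is filled among the basement membrane genes, while Loxl1, Crag, scb, ItgaPS4 and Itgbn are filled to the right and mew to the left.

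All of the 9 tested genes except wb shared the lowest array of each diet. Glucosamine array 3 was the lowest of its group for 8 of the 9, the exception being wb, and for 30.6% of everything tested. Sucrose array 2 was the lowest of its group for the same 8 genes, and for 29.7% of everything tested. Both held for 8 of the 9 and for 12.1% of everything tested. For trol this rests on its brightest probe set, whose sucrose values were close together (331, 316 and 337). Sucrose array 1 was the lowest of its group in the trol probe sets with log2 differences of 0.12 and −0.27. In the trol probe set with 0.09, glucosamine array 1 was the lowest of its group. Glucosamine arrays 1 and 2 both lay above every sucrose array for 6 of the 9 (Col4a1, vkg, LanA, LanB1, LanB2 and SPARC), and for 23.1% of everything tested. In all 6 of these glucosamine array 3 was also the lowest of its group, a pattern of 8.27% of everything tested. On the log2 scale glucosamine array 3 lay below the mean of glucosamine arrays 1 and 2 by a median of −0.71 over the 9 genes, against 0.03 over everything tested. The value for single genes ran from −0.82 for LanB1 to 0.08 for wb. Genes measured on the same arrays are not independent replicates, so these counts describe 6 arrays and no more.

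Hemocyte markers resembled these genes in their lowest arrays. Of the 7 tested, 6 were lowest on glucosamine array 3 and 5 were lowest on sucrose array 2, with 5 doing both. The exceptions were srp on both arrays and eater on sucrose array 2. Their median deviation on glucosamine array 3 was −0.67 on the log2 scale. Hml, which encodes hemolectin, had intensities of 2400, 2170 and 1072 on the glucosamine arrays and 1353, 1011 and 1645 on the sucrose arrays. It had the same low arrays as vkg and LanB2. Glucosamine arrays 1 and 2 both lay above every sucrose array for Hml and He, but not for NimC1, eater, Pxn, srp or crq. Over everything tested, both did so for 23.1%. None of the 7 hemocyte markers passed with limma between the diets, and none had an unadjusted p under 0.05. Their median log2 difference was 0.05, with Hml the highest at 0.43 and srp the lowest at −0.09. Of 6 tested fat body markers, 0 were lowest on glucosamine array 3 and 0 on sucrose array 2, with a median deviation of 0.20. Of 8 nephrocyte markers 3 were lowest on the former and 6 on the latter. Other markers were low on glucosamine array 3 as well, namely 3 of 3 tested neuron and glia markers and both heart muscle markers, with median deviations of −0.16 and −0.60. On sucrose array 2 the lowest value was found for 0 of these neuron and glia markers and 1 of the 2 heart muscle markers. The part of hemocyte content in the values of the basement membrane genes was not tested.

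**Figure D4:**
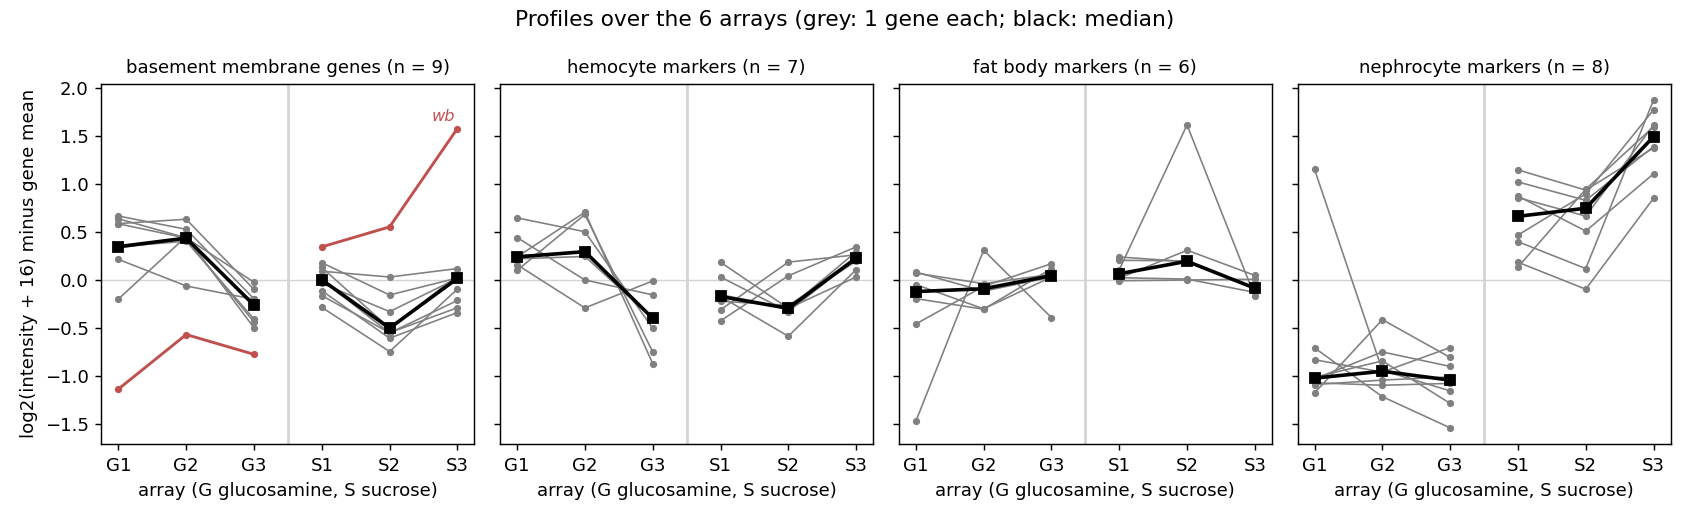
Log2(intensity + 16) minus the gene's own mean over the 6 arrays (vertical axis), for the 9 tested basement membrane genes and for hemocyte, fat body and nephrocyte markers, with arrays on the horizontal axis. Grey lines join the values of 1 gene within a diet, black squares are the median and wb is in red. The basement membrane and hemocyte panels both have low values on glucosamine array 3 and sucrose array 2, and wb has the shape of neither. Among the sucrose arrays, wb and each nephrocyte marker are highest on array 3.

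Leaving out glucosamine array 3 changed the calls. Without it, Col4a1 had a log2 difference of 0.89 (limma adjusted p = 0.0485) and LanB2 one of 0.93 (adjusted p = 0.0341), and both passed. In that fit 6.2% of everything tested rose and 4.62% fell. LanA had 0.99 (adjusted p = 0.0519), vkg 0.77, LanB1 and SPARC 0.49 each, and none of these passed. Other arrays lowered these values when left out. LanB1 had 0.02 without sucrose array 2, 0.06 without glucosamine array 2 and 0.10 without glucosamine array 1. SPARC had 0.09 without glucosamine array 2, 0.11 without glucosamine array 1 and 0.12 without sucrose array 2, and the lowest value of vkg was 0.34. The differences of trol and Ndg changed sign without glucosamine array 3, to 0.05 and 0.06. Over all 19 alternatives the log2 difference of Col4a1 ran from 0.56 to 1.01 and passed in 2 of them, the other being cyclic loess normalization (0.82, adjusted p = 0.0495). That of LanA ran from 0.56 to 1.03 and never passed, and that of LanB2 ran from 0.50 to 1.02 and passed in 1. For wb it ran from −1.92 to −0.77, negative in all and past the threshold in 15.

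**Figure D5:**
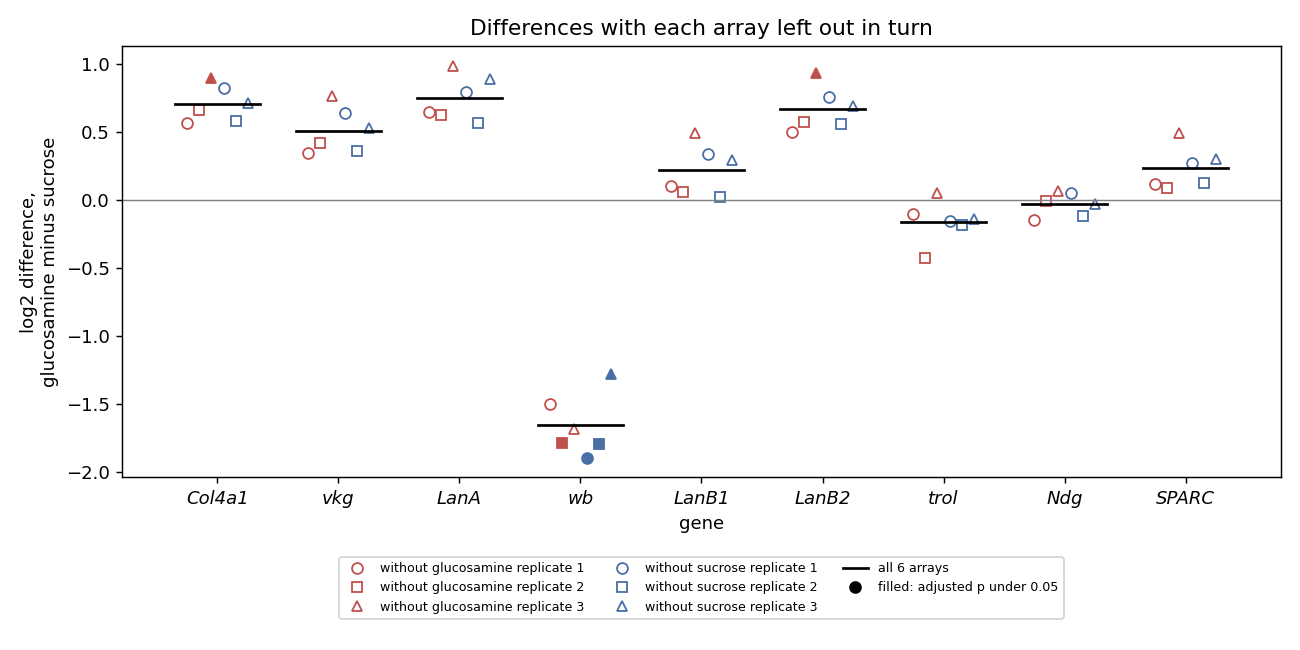
Log2 difference (glucosamine minus sucrose) of the 9 tested genes with each array left out in turn, with red symbols for glucosamine and blue for sucrose arrays left out and a black line for all 6 arrays. Filled symbols have an adjusted p under 0.05. The red triangles, without glucosamine array 3, are the highest value for 8 of the 9 genes, and only wb, Col4a1 and LanB2 have filled symbols.

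Genes that process or secrete matrix proteins were taken from a list of 15, of which 9 were tested. With limma 2 rose, where 9.93% of everything tested rose, and none fell. At an unadjusted p under 0.05, 3 had a positive and 1 a negative difference, and the median log2 difference was 0.05. Loxl1, which encodes a lysyl oxidase, an enzyme that crosslinks collagen, had intensities of 56.8, 38.7 and 76.0 on the glucosamine arrays and 9.16, 8.47 and 8.86 on the sucrose arrays. All sucrose values were under the filter level, so Loxl1 entered the test only through its glucosamine arrays and the size of its rise is uncertain. The log2 difference was 1.53 (limma adjusted p = 0.00606) and ran from 0.72 to 2.51 over 18 alternatives. Crag, which is needed for the polarised secretion of basement membrane proteins in fly follicle cells, rose by 0.80 on the log2 scale (limma adjusted p = 0.0165). Its call was lost without glucosamine array 1, without glucosamine array 3 and without sucrose array 2. The collagen-modifying enzyme genes PH4alphaEFB (prolyl hydroxylase, −0.17) and Plod (lysyl hydroxylase, 0.06) did not pass. The same held for Tango1 (−0.24), an export factor for collagen, and Pxn (0.05), the gene of the matrix peroxidase peroxidasin. Pxn is also among the hemocyte markers above. Loxl2 lay between 4.50 and 4.93 on all arrays and was not tested.

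In the list of 15 basement membrane receptors and adhesion genes, 12 were tested, 3 rose and 1 fell, with a median log2 difference of 0.11, where 9.93% of everything tested rose and 8.61% fell. scb, an integrin alpha chain gene, had intensities of 911, 612 and 557 on the glucosamine arrays and 203, 175.5 and 164.5 on the sucrose arrays. It rose by 1.82 ± 0.21 (SE; limma adjusted p = 0.00417) and passed in all 19 alternatives. ItgaPS4 rose by 1.75 (limma adjusted p = 0.00649), with sucrose intensities of 10.4 to 11.2 near the filter level, and its difference ran from 0.89 to 2.66 over 18 alternatives. The integrin beta chain gene Itgbn rose by 1.05 (limma adjusted p = 0.0451). mew, an integrin alpha chain gene whose product binds laminin, fell by 1.06 (limma adjusted p = 0.0224), and its second probe set fell by 1.11 (adjusted p = 0.0154). mew and Itgbn kept their call in 2 of the 6 fits that dropped a single array, and lost it without glucosamine array 1 or 3 or sucrose array 2 or 3. The main integrin beta chain gene mys had a log2 difference of 0.66 (adjusted p = 0.152) and the dystroglycan gene Dg one of −0.93 (adjusted p = 0.122). Both had groups that did not overlap, as had 39% of everything tested. The mys probe set used carries a suffix for probes that may match other transcripts. In the fit of all probe sets the other mys probe set had 0.58 (limma adjusted p = 0.184).

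Among 16 other matrix and matrix turnover genes, 11 were tested and none passed with limma. All 11 differences were positive, as were 4647 of the 10022 tested. Of the 11, 2 had an unadjusted p under 0.05, Ppn and Tsp, where 1665 of 10022 had a positive difference at that level. Ppn, which encodes papilin, had intensities of 10982, 7146 and 5179 on the glucosamine arrays and 4946, 3669 and 5092 on the sucrose arrays. It had its low values on the same arrays as the collagen IV genes, with a log2 difference of 0.71 (limma adjusted p = 0.147). Timp, the gene of a metalloproteinase inhibitor, differed by 0.42 (adjusted p = 0.186), and the metalloproteinase gene Mmp2 by 0.25 (adjusted p = 0.347). Mp, which encodes a multiplexin collagen, differed by 0.95 with overlapping groups (adjusted p = 0.216). The list's median log2 difference was 0.30, and 0.55 without glucosamine array 3.

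The tested genes with profiles most like those of 3 members were found by the Euclidean distance between log2(intensity + 16) profiles, each centred on its own mean, over the 6 arrays. For Col4a1 they were trx (distance 0.166), PRL-1 (0.213) and LanB2 (0.217). For vkg they were Obp57a (0.133), CG7115 (0.180) and Keap1 (0.211). For wb they were lap (0.300), galla-1 (0.413) and CG13937 (0.456), whose direction between the diets follows from how they were chosen. LanB2 was the one basement membrane gene among these 9.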

How the data were processed

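Each array has 1 intensity for every probe set, deposited by the authors as linear values from 4.32 to 46624. Per the labels' protocols, RNA was purified with Trizol and RNeasy MinElute and labelled by the standard Affymetrix protocol; background correction, probe summary and normalization were not given in the sources used here. Values were used as deposited, with a pseudocount of 16, as log2(intensity + 16), which understates changes of low genes. Gene symbols came from the platform annotation. Controls (183) and probe sets with several symbols (402) were left out. The brightest probe set on average stood for its gene. A filter removed the lowest 40% by mean of 16702 genes and unnamed probe sets. The remaining 10022 were fitted with limma 3.58.1 (lmFit, eBayes) under R 4.3.3, and its two-sided p-values were adjusted over all of them by the Benjamini-Hochberg method. All probe sets were also fitted separately. The fit was tested on simulated data. Of 99 genes in the lists 85 were found on the array under their symbol or Entrez identifier, and the others were not analysed here. The genes and lists were chosen with earlier results of these data known. Named were all members, list genes past the threshold, 13 further list genes whatever their result (Mmp1 was not found), and the 3 nearest profiles of vkg, Col4a1, wb and prc (prc was not tested). Groups and replicate numbers came from the titles, and the number of arrays limits the precision. Alternatives were other normalizations, filters, pseudocounts, probe set rules, variance models, a replicate block and arrays left out.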

Additional observations from a re-analysis of the deposited data

How the results depend on the processing

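Of the 9 tested genes, 1 fell and 0 rose with all 6 arrays. With single arrays left out 0 to 1 fell and 0 to 2 rose, and their median log2 difference ran from 0.09 to 0.49. Cyclic loess made 1 rise, and 0 fell with no filter on low values, where wb had −1.65 (limma adjusted p = 0.0738) and more probe sets entered the adjustment, or with glucosamine array 3 and sucrose array 1 both left out, where wb had −1.92 (adjusted p = 0.0790), and where the median was 0.61. The log2 difference of Ndg changed sign under cyclic loess (0.0146), with array weights (0.0084), with both arrays left out (0.144) and in the fits without glucosamine array 3 and without sucrose array 1, and ran from −0.147 to 0.0614 with single arrays left out. That of trol changed sign without glucosamine array 3 and with both left out (0.0521), and ran from −0.430 to 0.0466 with single arrays left out. The cause was not tested. The labels do not say whether the replicate numbers pair the samples. Correlations of deviations of 0.02, −0.12 and −0.05 cannot settle this with 3 arrays per group. Fitting the numbers as a block gave 588 rises and 400 falls over everything tested, against 995 and 863. It gave 1 rise among processing genes against 2, and 0 falls among receptors against 1, while wb passed (−1.65, limma adjusted p = 0.0362). Rises and falls over everything tested were 493 to 830 and 289 to 635 with single arrays left out, and 209 and 118 with both left out. Processing genes had 1 to 2 rises with single arrays left out, 1 with the filter on 60%, 0 with both left out, and 1 fall with no filter or a pseudocount of 64. Receptors had 0 to 1 falls and 2 to 3 rises with single arrays left out, 0 falls with no filter, and 1 rise and 0 falls with both left out. The within-array ratios of gene pairs kept their sign under both other pseudocounts. Intensities near the floor limit prc, Loxl2 and the dim probe sets of trol and wb.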
